A study of Mus musculus with 12 samples.

Results

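The clustered protocadherins are cell-surface adhesion proteins of the cadherin superfamily whose genes lie in 3 neighbouring clusters, alpha, beta and gamma. They were taken as every gene whose name gives a member of these clusters, and 58 of the 34745 genes in the deposited table qualified: 14 alpha, 22 beta and 22 gamma genes. RNA had been sequenced from the medial prefrontal cortex (mPFC), a frontal region linked to how unpleasant pain is felt to be. All mice were wild-type males. Of the 12 libraries, 4 came from the left mPFC of mice whose left sciatic nerve had been constricted (chronic constriction injury, CCI) 28 days earlier, and these are called ipsilateral 1 to 4. The right mPFC of CCI mice gave 4 more, contralateral 1 to 4, and naive mice after the same number of days of habituation gave the last 4, naive 1 to 4, whose hemisphere is not stated. Left and right libraries with the same number were read from their codes as the hemispheres of 1 mouse, which the labels do not say outright. No age is given for the mice, and nothing says how many mice went into a library, so p-values measure the spread between these libraries.

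In the alpha and gamma clusters each gene has its own promoter and its own large first exon, which encodes the whole extracellular part, and every first exon is spliced to the same 3 exons, which encode a shared cytoplasmic tail. The beta genes have no such shared exons. Individual neurons are known to use only some of the alternative promoters, chosen largely at random, while the C-type genes at the ends of the alpha and gamma clusters are used more uniformly. Proteins of matching type bind each other across cell contacts, and the clusters are known for self-recognition and spacing of the branches of 1 neuron, for axon targeting and for neuron survival.

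The layout of the gene models sets what a count per member can show. On chromosome 18 of GRCm38, plus strand, the alpha models span 36930184 to 37187661, the beta models 37264938 to 37524479 and the gamma models 37661793 to 37841873. Every alpha model ran to the shared end of its cluster and so overlapped the other 13, and every gamma model overlapped the other 21. Among the 22 beta models only Pcdhb21 and Pcdhb22 overlapped, by 455 bases. In GENCODE M21, whose loci were identical to the deposited ones for all 58 members, the exonic blocks present in all 14 alpha models were 37156155 to 37156213, 37159265 to 37159353 and 37184946 to 37187657, together 2860 bases. The blocks present in all 22 gamma models were 37825021 to 37825079, 37833265 to 37833353 and 37839903 to 37841870, together 2116 bases. A read inside these blocks matches every model of its cluster. How the authors' counting assigned such reads is not given in the sources used here, so the split of an alpha or gamma total between members is uncertain. The sum over a cluster does not depend on that split, as long as each read was counted once and for a member. Models that are not members also overlap the clusters, 12 of them at Pcdha1 and 9 at Pcdhga1. Of the 4732 exonic bases of Pcdhga10, 0 belong to no other model. Reads given to such models would be missing from the sums. The 3 that run from the alpha into the gamma cluster (Gm37013, Gm37388 and Gm42416) had a total count of 0 over all libraries. The counts of the other such models were not examined.

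The names hold 2 traps. The gene ENSMUSG00000023036 (37815079 to 37841873) is called Pcdhga8 in the deposited table but Pcdhgc4 in GENCODE M21 at the same locus, and it is called Pcdhgc4 here. Pcdhga8 here is ENSMUSG00000103897 (37725706 to 37841873). Both sources use Pcdha11 for a pair of models, ENSMUSG00000007440 (37005203 to 37187657) and ENSMUSG00000102206 (37010712 to 37187657), which are kept apart by their identifiers.

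Total counts were 16.1 to 20.6 M (mega-counts) per library. Markers of cortical excitatory neurons (Slc17a7, Neurod6 and Tbr1) summed to 1920 to 2370 CPM and were detected in every library, and those of serotonergic neurons to 0.221 to 1.19 CPM. CPM is the depth-normalised level of a gene, with library totals scaled by TMM factors. Striatal markers summed to 252 CPM in contralateral 1 and to 112 to 150 CPM in the other 11 libraries. Of the members, 57 passed the filter on low counts. Pcdhb1 did not, with 0 to 3 counts per library.

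The summed levels of the gamma and beta clusters were even across libraries, and that of the alpha cluster was less so. The gamma members together reached 671, 753, 742 and 759 CPM in ipsilateral 1 to 4, 744, 768, 751 and 837 CPM in contralateral 1 to 4 and 770, 767, 759 and 758 CPM in naive 1 to 4. Ipsilateral 1 was the lowest and contralateral 4 the highest, and the groups overlapped. The group means were 731 ± 40.7, 775 ± 42.5 and 764 ± 5.96 CPM (SD, n = 4 each), and the coefficient of variation (CV, SD as a percentage of the mean) over the 12 libraries was 4.82%. The members that make up this sum were far less even, with a median CV of 35.4%.

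Beta members summed to 143, 157, 152 and 149 CPM in ipsilateral, 142, 135, 140 and 135 CPM in contralateral and 132, 145, 156 and 146 CPM in naive libraries. All 4 contralateral sums lay below all 4 ipsilateral ones, by a small margin, and naive libraries spanned both. The beta means were 150 ± 5.84, 138 ± 3.42 and 145 ± 9.67 CPM (SD, n = 4 each), with a CV of 5.63% over the 12 libraries and a median CV of 16% for single members.

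Alpha members summed to 153, 150, 148 and 156 CPM in ipsilateral, 135, 149, 116 and 116 CPM in contralateral and 146, 130, 152 and 143 CPM in naive libraries. Contralateral 3 and 4 were the lowest of all 12, while contralateral 2 reached the ipsilateral range. The alpha means were 152 ± 3.48, 129 ± 16.2 and 143 ± 9.45 CPM (SD, n = 4 each), a log2 ratio of -0.23 for contralateral to ipsilateral and -0.14 for contralateral to naive. The CV of the alpha sum over the 12 libraries was 9.84%, with a median CV of 18.2% for single members. Right over left within mice 1 to 4, the log2 ratio of the alpha sum was -0.18, -0.01, -0.35 and -0.42. The gamma sum had ratios of 0.15, 0.03, 0.02 and 0.14 in the same mice, so alpha and gamma sums did not move alike between hemispheres. The beta sum had ratios of -0.01, -0.22, -0.12 and -0.14, below 0 in each mouse as for alpha, and further below than alpha in mouse 2. No p was computed for a sum over members.

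Some cell type marker sums differed between the hemispheres in the same mice as the alpha sum, up or down, and others did not. The 3 excitatory neuron markers summed to 2240, 2120, 2080 and 2370 CPM in ipsilateral 1 to 4 and to 1980, 2160, 1920 and 1920 CPM in contralateral 1 to 4, with naive libraries at 2140 to 2210 CPM. Their right over left log2 ratios in mice 1 to 4 were -0.18, 0.03, -0.12 and -0.30, lowest in mouse 4 as for the alpha sum. Slc17a7, at 1660 to 2000 CPM over the 12 libraries, made up most of the excitatory neuron sum. The 6 interneuron markers had ratios of -0.26, 0.11, -0.16 and -0.16, lowest in mouse 1. The 5 astrocyte markers had ratios of 0.32, -0.17, 0.40 and 0.65, highest in mouse 4. Markers of microglia (0.29, -0.06, 0.29 and 0.52) and of meningeal cells (1.26, -1.35, 0.93 and 1.37) were likewise higher on the right in mice 1, 3 and 4, the meningeal ones from sums of 15.8 to 52.9 CPM. Oligodendrocyte markers (0.07, 0.65, -0.40 and 0.00) had another order. None of these markers was at 0 in any library. The part of cell composition in the alpha values was not tested, and in bulk tissue fewer cells of a type and less RNA per cell cannot be told apart.

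**Figure D1:**
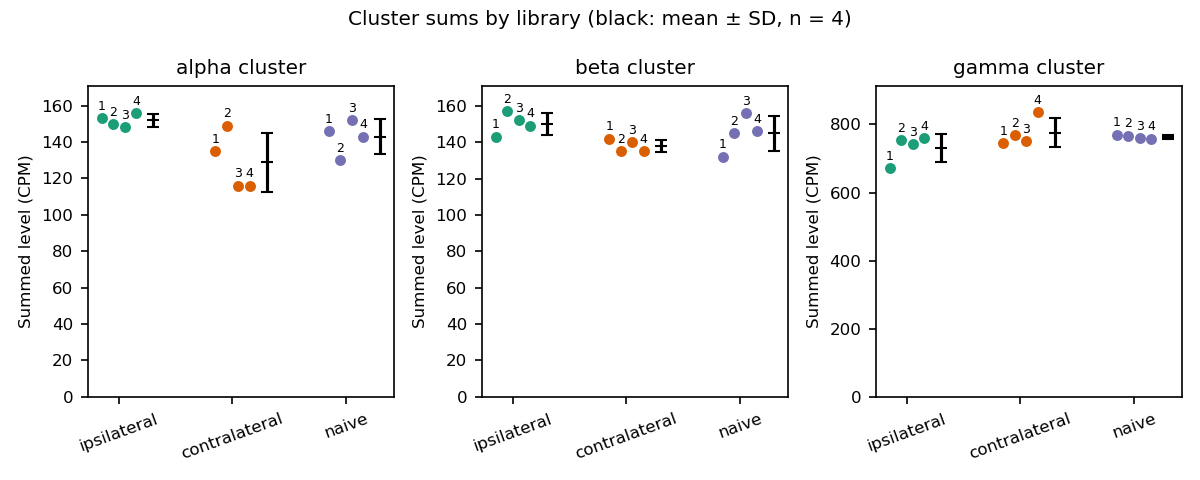
Summed level of the members of each cluster in CPM (vertical axes, from 0) for the 4 libraries of each group, numbered by replicate; black bars give the mean ± SD (n = 4). Contralateral 3 and 4 are lowest in the alpha panel at 116 CPM, and the gamma sums of all libraries lie between 671 and 837 CPM.

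Levels were compared between members per kilobase of exon. In the alpha cluster the C-type member Pcdhac2 (ENSMUSG00000102697; 37143503 to 37187657), which is known for spacing serotonergic axons, led with a mean of 8.71 CPM per kb, ahead of Pcdha12 at 2.56, and the lowest were Pcdha1 at 0.644 and Pcdha8 at 0.193 CPM per kb. Its levels were 54, 51.2, 56.6 and 59.1 CPM in ipsilateral, 44.9, 57, 43.2 and 40 CPM in contralateral and 51.5, 45.8, 60.3 and 51.8 CPM in naive libraries. It was the top alpha member in all 12 libraries, taking 33.2 to 39.6% of the alpha counts, and contralateral 4 and 3 were its lowest libraries. The other C-type alpha member, Pcdhac1 (ENSMUSG00000103255; 37090013 to 37187657), stood at a mean of 0.937 CPM per kb, below the median of 1.2 CPM per kb for the 14 alpha members.

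In the beta cluster Pcdhb9 (ENSMUSG00000051242; 37400855 to 37403909) and Pcdhb17 (ENSMUSG00000046387; 37484795 to 37489454) were highest per length at 4.04 and 3.87 CPM per kb, and Pcdhb21 and Pcdhb1 lowest at 0.423 and 0.0193 CPM per kb. The beta median was 1.26 CPM per kb. Pcdhb17 took a mean of 12.5% of the beta counts and was the evenest member of its cluster, with a CV of 5.86%. Its levels were 18.9, 17.6, 17 and 17.5 CPM in ipsilateral, 19.2, 17.9, 17 and 19.6 CPM in contralateral and 16.3, 17.6, 19.3 and 18.4 CPM in naive libraries, with no group apart.

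The gamma cluster had the highest levels, with a median of 3.26 CPM per kb. Its top means per length were those of Pcdhgb8 (25.9 CPM per kb), Pcdhga1 (16.5), Pcdhgc3 (15) and Pcdhgc5 (12.5), and its lowest those of Pcdhgb5 (1.74) and Pcdhga8 (1.64). The means of Pcdhgb8 and Pcdhga1 rested on a few libraries, as shown next. Among the C-type members, Pcdhgc5 (ENSMUSG00000102543; 37819513 to 37841873) was the steadier of the abundant ones, at 87.2, 93.4, 90.3 and 94.3 CPM in ipsilateral, 86.5, 137, 74.2 and 122 CPM in contralateral and 91.6, 82.4, 101 and 88.6 CPM in naive libraries. Contralateral 2 and 4 were its highest libraries and contralateral 3 its lowest. Pcdhgc4, known for its part in the survival of neurons, was lower per length at 3.09 CPM per kb, with 10.8 CPM in naive 1 and 15.1 to 20.8 CPM in the other libraries. Because reads of the shared exons may be assigned to any model, these levels per member carry the uncertainty given above for alpha and gamma. In the beta cluster overlap touches Pcdhb21 and Pcdhb22, and Pcdhb12, of whose 3034 exonic bases 1107 belong to no other model.

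**Figure D2:**
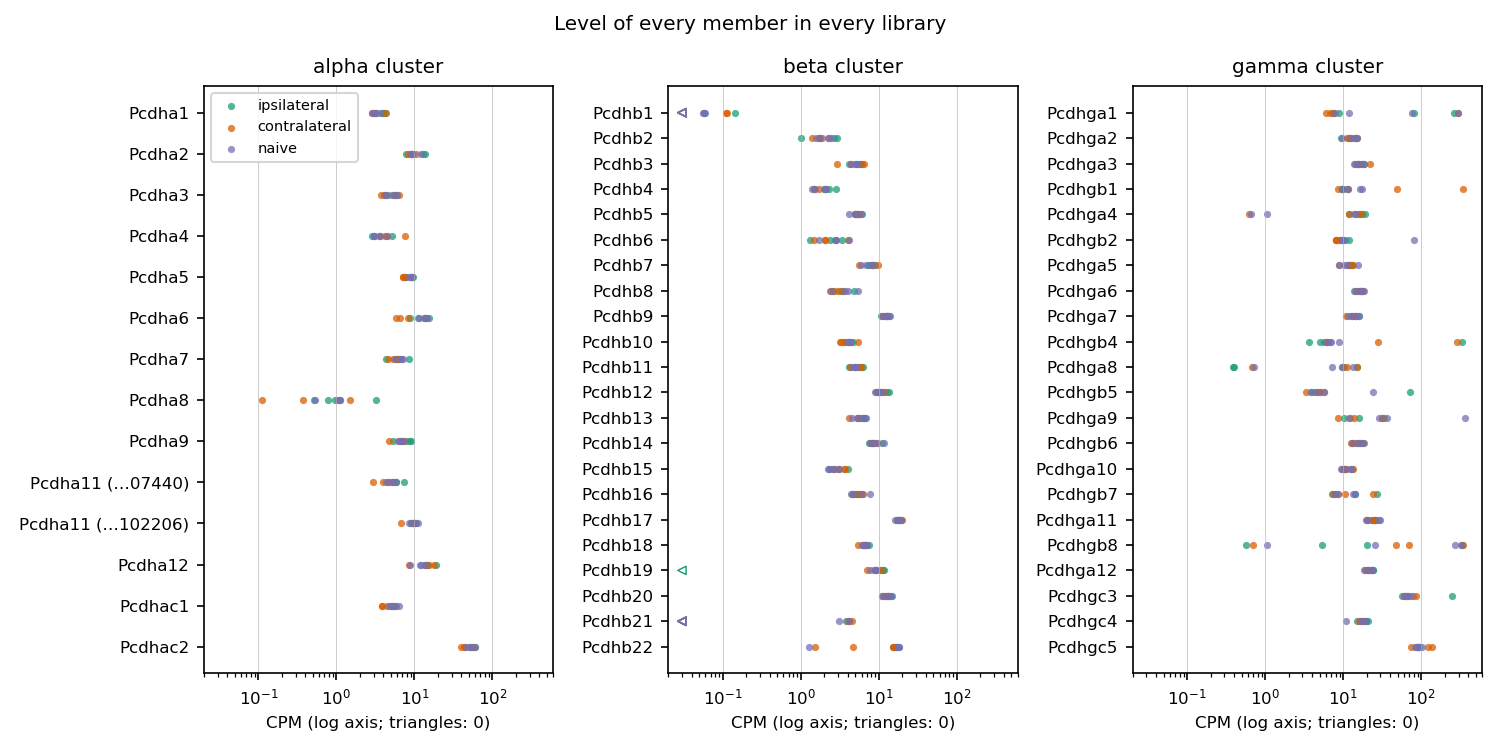
Level of each of the 58 members in each of the 12 libraries (CPM, log axis), in genome order from the top, 1 panel per cluster and 1 colour per group; triangles at the left edge mark a count of 0. Most alpha and beta points of a member lie close together, while several gamma members are spread over more than 1 order of magnitude. For some, such as Pcdhgb8 and Pcdhga1, all 3 groups are spread. For others the high points come from 1 group, such as naive for Pcdhga9, or from CCI libraries only, as for Pcdhgb4.

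In the gamma cluster the leading member differed from library to library. The leading gamma member was Pcdhgc3 in ipsilateral 1 (248 CPM, 36.9% of the gamma counts), Pcdhgb8 in ipsilateral 2 (331 CPM, 44%), Pcdhga1 in ipsilateral 3 (263 CPM, 35.5%) and Pcdhgb4 in ipsilateral 4 (337 CPM, 44.3%). It was Pcdhgb4 in contralateral 1 (291 CPM, 39.2%), Pcdhgb1 in contralateral 2 (338 CPM, 44%), Pcdhga1 in contralateral 3 (295 CPM, 39.3%) and Pcdhgb8 in contralateral 4 (339 CPM, 40.5%). Among naive libraries the leaders were Pcdhgb8 in 1 and 3 (269 and 326 CPM, 34.9 and 43%), Pcdhga1 in 2 (293 CPM, 38.2%) and Pcdhga9 in 4 (361 CPM, 47.6%). Thus 1 member held 34.9 to 47.6% of the gamma counts in each library. Pcdhgb8 and Pcdhga1 each led in libraries of all 3 groups, and only mouse 3 had the same leader in both hemispheres.

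**Figure D3:**
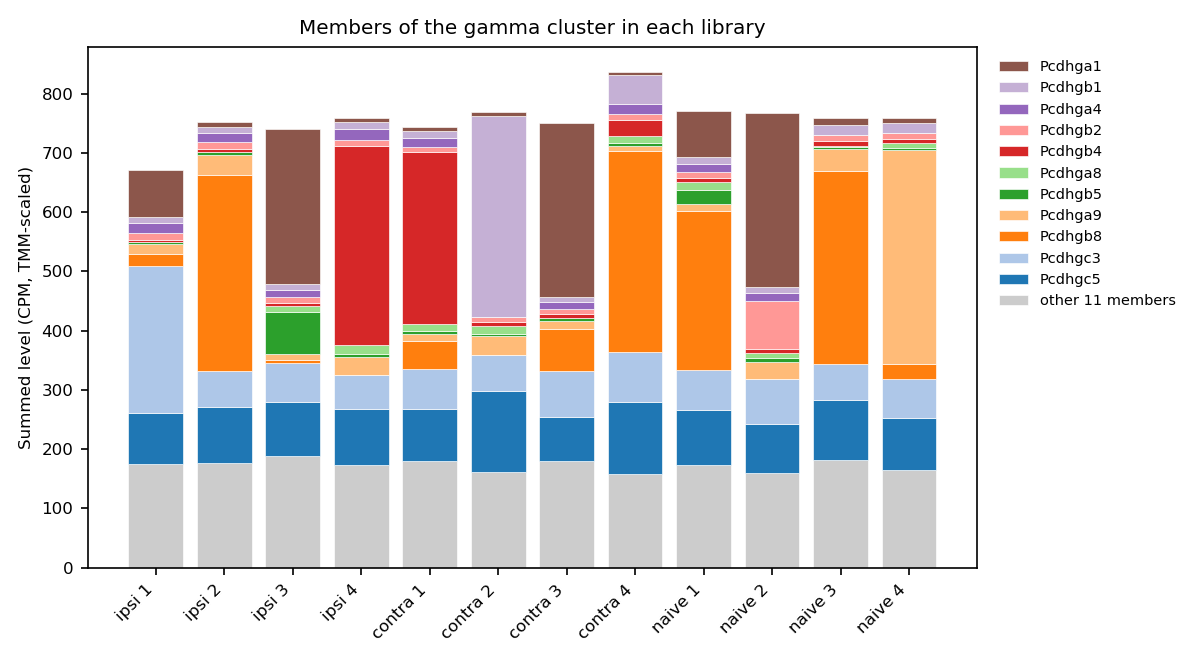
Stacked levels of the gamma members in each library (vertical axis, summed CPM), with the 9 members of wide range, Pcdhgc3 and Pcdhgc5 in colour and the other 11 in grey. The bar heights lie between 671 and 837 CPM, and the largest block is Pcdhgc3, Pcdhgb8, Pcdhga1, Pcdhgb4, Pcdhgb1 or Pcdhga9, depending on the library.

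To count such members, those with a mean of at least 5 CPM were asked whether the highest library stood at 5 times the lowest or more, a rule set after the values had been seen. By this rule 9 of 22 gamma members, 2 of 14 beta members and 0 of 11 alpha members had a wide range, against 111 of 11778 genes in all (0.942%). The gamma ones were Pcdhga1, Pcdhgb1, Pcdhga4, Pcdhgb2, Pcdhgb4, Pcdhga8, Pcdhgb5, Pcdhga9 and Pcdhgb8. Just inside the rule was Pcdhgb2 at 10.1 times, and just outside were Pcdhgc3 at 4.34 and Pcdhgb7 at 3.72 times. The gap between them was wide: asking for 10 times gave 9 gamma members (44 genes in all), and asking for 3 times gave 11 (310 genes in all). The cut at 5 CPM left out alpha and beta members of low level. Among these were Pcdha8 (mean 1.03 CPM), with a range of 29.4 times, and Pcdhb21 (mean 1.99 CPM), with 0 counts in 6 libraries.

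Pcdhgb8 (ENSMUSG00000103081; 37761801 to 37841870) had the widest range, at 597 times. Its levels were 20.1, 331, 5.29 and 0.568 CPM in ipsilateral, 47.4, 0.688, 70 and 339 CPM in contralateral and 269, 1.06, 326 and 25.2 CPM in naive libraries. Each group held both very high and very low libraries, so the spread lay within groups. Within mice, the left and right libraries were unlike in mice 2 and 4, at 331 against 0.688 and 0.568 against 339 CPM.

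Pcdhgb4 (ENSMUSG00000103585; 37720369 to 37841870), with a range of 93.5 times, stood at 3.6, 5.04, 5.75 and 337 CPM in ipsilateral, 291, 6.25, 6.17 and 27.7 CPM in contralateral and 6.97, 6.01, 8.79 and 6.74 CPM in naive libraries. Its 2 leading libraries, ipsilateral 4 and contralateral 1, carry different mouse numbers, and contralateral 4 followed. Pcdhga1 (ENSMUSG00000103144; 37661793 to 37841873), with 48.5 times, stood at 80, 8.92, 263 and 7.45 CPM in ipsilateral, 7.29, 6.75, 295 and 6.09 CPM in contralateral and 77, 293, 11.8 and 7.85 CPM in naive libraries. High values fell in both hemispheres of mouse 3, and naive 2 was as high.

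Pcdhga9 (ENSMUSG00000102440; 37736936 to 37841870) stood at 15.8, 32.9, 10.3 and 31 CPM in ipsilateral, 12.1, 31.4, 13.8 and 8.53 CPM in contralateral and 11.8, 28.8, 36.2 and 361 CPM in naive libraries, a range of 42.3 times made by naive 4. Pcdhgb1 (ENSMUSG00000103037; 37680233 to 37841870) stood at 9.77, 9.7, 9.72 and 11.2 CPM in ipsilateral, 11.6, 338, 8.55 and 49.1 CPM in contralateral and 11.6, 9.95, 17.3 and 16.6 CPM in naive libraries, a range of 39.6 times made by contralateral 2. For both, a single library was an order of magnitude above nearly all others.

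Pcdhga8 and Pcdhga4 differed in the opposite sense, with a few very low libraries. Pcdhga8 stood at 0.4, 0.388, 9.61 and 14.9 CPM in ipsilateral, 10.3, 14.8, 0.679 and 11.3 CPM in contralateral and 13.2, 9.71, 0.717 and 7.21 CPM in naive libraries. Pcdhga4 (ENSMUSG00000103677; 37685210 to 37841873) was at 0.625 CPM in contralateral 2, 0.658 in naive 3 and 1.06 in naive 4, and at 11.8 to 19.2 CPM in the other 9. The 2 remaining wide members had smaller peaks. Pcdhgb5 reached 71.2 CPM in ipsilateral 3 and 24 CPM in naive 1 and was at 3.38 to 5.59 CPM elsewhere. Pcdhgb2 reached 81.1 CPM in naive 2 and was at 8.04 to 11.7 CPM elsewhere. The low libraries of Pcdhga8 came from all 3 groups, and those of Pcdhga4 from contralateral and naive ones.

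Among members with a mean of at least 5 CPM, counting a library as high at 3 times a member's own median or more, and as low at that median divided by 3 or less, gave 19 high values in 8 gamma members and 11 low values in 3. The high values covered all 12 libraries, and the low ones 9 of them. In the beta cluster there were 4 low values in 2 members and no high one, and in the alpha cluster none of either kind. Where the leading member of a library was one of the 9 wide members, these 9 together held 396 to 472 CPM. In ipsilateral 1, where the constitutive C-type member Pcdhgc3 (ENSMUSG00000102918; 37806364 to 37841873) led, the 9 held 162 CPM and the other 13 held 509 CPM, against 317 to 365 CPM for those 13 in the other 11 libraries. Pcdhgc3 itself stood at 248 CPM there and at 57.1 to 85.1 CPM in the other libraries, and the gamma sum of ipsilateral 1 was the lowest of the 12.

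All 8 gamma members with a high library have several annotated transcripts in GENCODE M21, against 5 of the other 14 gamma members. For Pcdhgb8 among them, the length behind the deposited FPKM was 4615 bases, equal to its exonic bases. The sum of its distinct M21 exon records is 7263 bases. The annotation behind the deposited values may therefore differ from M21 in the transcripts of Pcdhgb8. These 8 are not the 9 wide members: Pcdhgc3 is added, and Pcdhga4 and Pcdhga8 are left out. The wide member Pcdhga8 has 1 transcript. Pcdhgb7, also with 1, peaked at 26.9 CPM against its median of 9.49 CPM, below the cut of 3 times. In the alpha cluster 5 of 14 members, and in the beta cluster 4 of 22, have several. This was seen after the members had been chosen by their values and is a description. Whether the counting program's choice among overlapping transcripts, or expression itself, set the leading member was not tested, since the deposited values hold 1 count per gene and library.

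The other 13 gamma members had CVs of 8.79 to 63.7%. Pcdhgc3 (63.7%) and Pcdhgb7 (52.6%) were the least even of them. The 2 evenest gamma members were Pcdhga6, at 13.9 to 18.4 CPM, and Pcdhga12, at 18.4 to 24.2 CPM with a CV of 9.17%. The likeness of member use between libraries, as Spearman's rho of the members' CPM over the 66 pairs of libraries, had a median of 0.90 in the alpha (0.69 to 0.98; 14 members), 0.89 in the beta (0.58 to 0.98; 22 members) and 0.43 in the gamma cluster (-0.10 to 0.94; 22 members). The left and right libraries of mice 1 to 4 had gamma values of 0.51, 0.44, 0.61 and 0.50, near that median. The points of each correlation share the scaling of their library.

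The last 4 beta genes are described because some of their values stood out. Pcdhb19 (ENSMUSG00000043313; 37496991 to 37504128) had 0 counts in ipsilateral 1, where a count of 0 allows up to 0.171 CPM (3 counts, counting error only), and 7.02 to 11.6 CPM (124 to 236 counts) in the other 11 libraries. Pcdhb21 (ENSMUSG00000044022; 37513621 to 37518325) had 0 counts in 6 libraries (ipsilateral 1 and 4, contralateral 3 and 4, naive 3 and 4) and 3.12 to 4.56 CPM (56 to 86 counts) in the other 6. It was therefore either absent from the table's counts or present at about the same level, in every group.

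Pcdhb22 (ENSMUSG00000073591; 37517871 to 37524479), which overlaps the end of Pcdhb21, stood at 16.6, 17.1, 16.5 and 15 CPM in ipsilateral, 4.66, 1.5, 15.1 and 15.8 CPM in contralateral and 1.28, 17.9, 17.8 and 18.4 CPM in naive libraries. Its 3 low libraries, contralateral 1 and 2 and naive 1, were among the 6 in which Pcdhb21 was detected. Pcdhb20, which lies between Pcdhb19 and Pcdhb21 and overlaps neither, stood at 10.9 to 14.7 CPM in all 12. The plot of the beta end shows these 4 genes side by side.

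**Figure D4:**
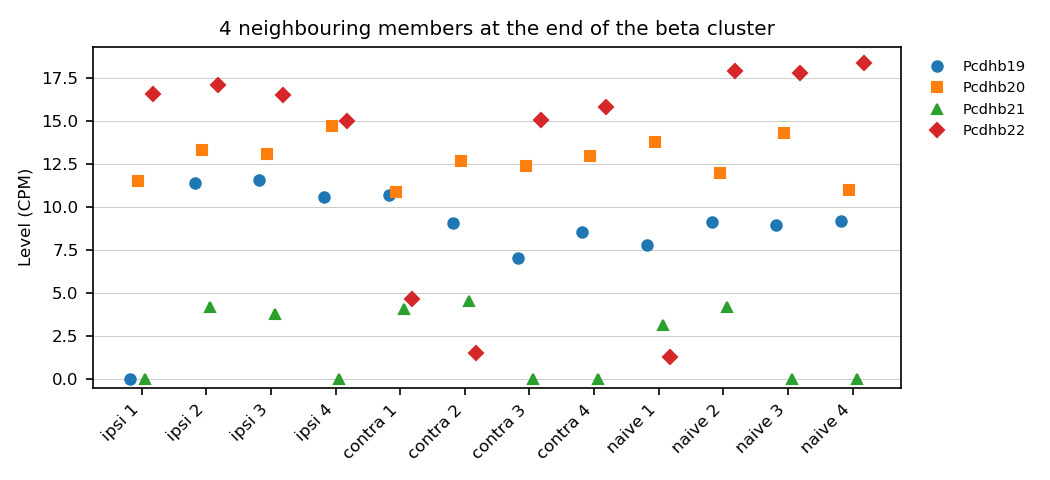
Level (CPM) of Pcdhb19, Pcdhb20, Pcdhb21 and Pcdhb22 in each library. Pcdhb21 is at 0 in 6 libraries and Pcdhb19 in ipsilateral 1, Pcdhb22 is below 5 CPM in 3, and Pcdhb20 stays between 10.9 and 14.7 CPM.

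The first comparison set the right mPFC of CCI mice, contralateral to the nerve, against naive mPFC. No member had a Benjamini-Hochberg adjusted p under 0.05 in edgeR's quasi-likelihood test, where 0 of 15808 genes passed (0%), nor by limma (0 genes passing) or DESeq2 (3 genes passing). At an unadjusted p under 0.05 there were 5 of 57 members, 1 higher and 4 lower, against 3.78% of all genes. Pcdhgb1, whose values are given above, had a log2 fold change of 2.87 (SE 1.06, adjusted p = 1 in edgeR), which was 0.74 without contralateral 2. For Pcdhga9 it was -2.74 (SE 1.06), and -0.64 without naive 4.

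The alpha members of this comparison varied less. Pcdha6 (ENSMUSG00000103707; 36967631 to 37187657) stood at 13.7, 8.38, 5.77 and 6.59 CPM in contralateral and 14.2, 11, 13.1 and 14.7 CPM in naive libraries, with ipsilateral ones at 8.86 to 15.6 CPM. Contralateral 2 to 4 were below every naive library and contralateral 1 was not, and the log2 fold change was -0.62 (SE 0.25), or -0.94 without contralateral 1. By cluster, 3 of 14 alpha members had a positive fold change and 11 a negative one (median -0.16), beta members split 8 to 13 (median -0.05) and gamma members 11 to 11 (median 0.01), while 50.1% of all genes were positive with a median of 0.00. Pcdhac1 was among the 5, at 3.89, 5.5, 4.42 and 3.88 CPM in contralateral and 5.3, 4.71, 5.74 and 6.33 CPM in naive libraries, a log2 fold change of -0.32 (SE 0.14). Its groups overlapped through contralateral 2. Pcdhgb2 was the last of the 5 at -1.72 (SE 0.71), with naive 2 alone standing high.

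The second comparison set the left, ipsilateral mPFC of CCI mice against naive mPFC. No member passed in edgeR, limma or DESeq2, with 0 of the 15808 genes passing in edgeR (0%), 0 in limma and 9 in DESeq2. At an unadjusted p under 0.05 there were 0 of 57 members, against 4.83% of all genes. The smallest unadjusted p belonged to Pcdhb4 (ENSMUSG00000045689; 37307455 to 37311172), at 2.11, 2.81, 2.01 and 2.33 CPM in ipsilateral and 1.51, 1.41, 2.03 and 2.05 CPM in naive libraries, a log2 fold change of 0.41 (SE 0.19, adjusted p = 0.972 in edgeR). Its groups overlapped. Pcdha12 (ENSMUSG00000103310; 37020149 to 37187657) stood at 19, 14.7, 13.9 and 14.7 CPM against 11.9, 8.71, 13.6 and 12.1 CPM, with every ipsilateral library above every naive one and a log2 fold change of 0.43 (SE 0.20). Pcdhga9 was at -2.28 (SE 1.03), and at -0.18 without naive 4. Positive and negative fold changes were split 9 to 5 in the alpha, 14 to 7 in the beta and 13 to 9 in the gamma cluster (medians 0.07, 0.05 and 0.02), against 49.9% positive and a median of -0.00 over all genes. Both comparisons share the naive libraries, so their values are not independent.

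Contralateral and ipsilateral libraries were then compared with each other. Again no member passed, and no gene did in edgeR (0%), limma or DESeq2. Of the 57 members, 5 had an unadjusted p under 0.05, 1 higher and 4 lower in contralateral libraries, against 8.36% of all genes, so the members' share was close to the background. Pcdhgb1 was higher by a log2 fold change of 3.33 (SE 1.09, adjusted p = 0.592 in edgeR), or 1.20 without contralateral 2. Pcdha11 (ENSMUSG00000007440) stood at 4.55, 5.38, 3.96 and 2.93 CPM in contralateral and 5.77, 7.27, 4.54 and 5.8 CPM in ipsilateral libraries, lower in the right library of each of the 4 mice, with a log2 fold change of -0.48 (SE 0.18). Pcdhac2, with the values given above, was at -0.26 (SE 0.10). It was lower on the right in mice 1, 3 and 4 and higher in mouse 2.

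Pcdhb4 and Pcdhb13 were the other members of smallest p, at -0.47 (SE 0.19) and -0.30 (SE 0.14). In the alpha cluster 1 member was positive and 13 were negative (median -0.22), in the beta cluster 5 and 16 (median -0.08) and in the gamma cluster 7 and 15 (median -0.12), against 51.1% positive and a median of 0.00 over all genes. As given above, neuron marker sums were lower, and astrocyte, microglia and meningeal ones higher, on the right in mice 1, 3 and 4. Oligodendrocyte markers, with log2 ratios of 0.07, -0.40 and 0.00 in these mice, had no such order. A link of the alpha fold changes to cell composition was not tested.

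**Figure D5:**
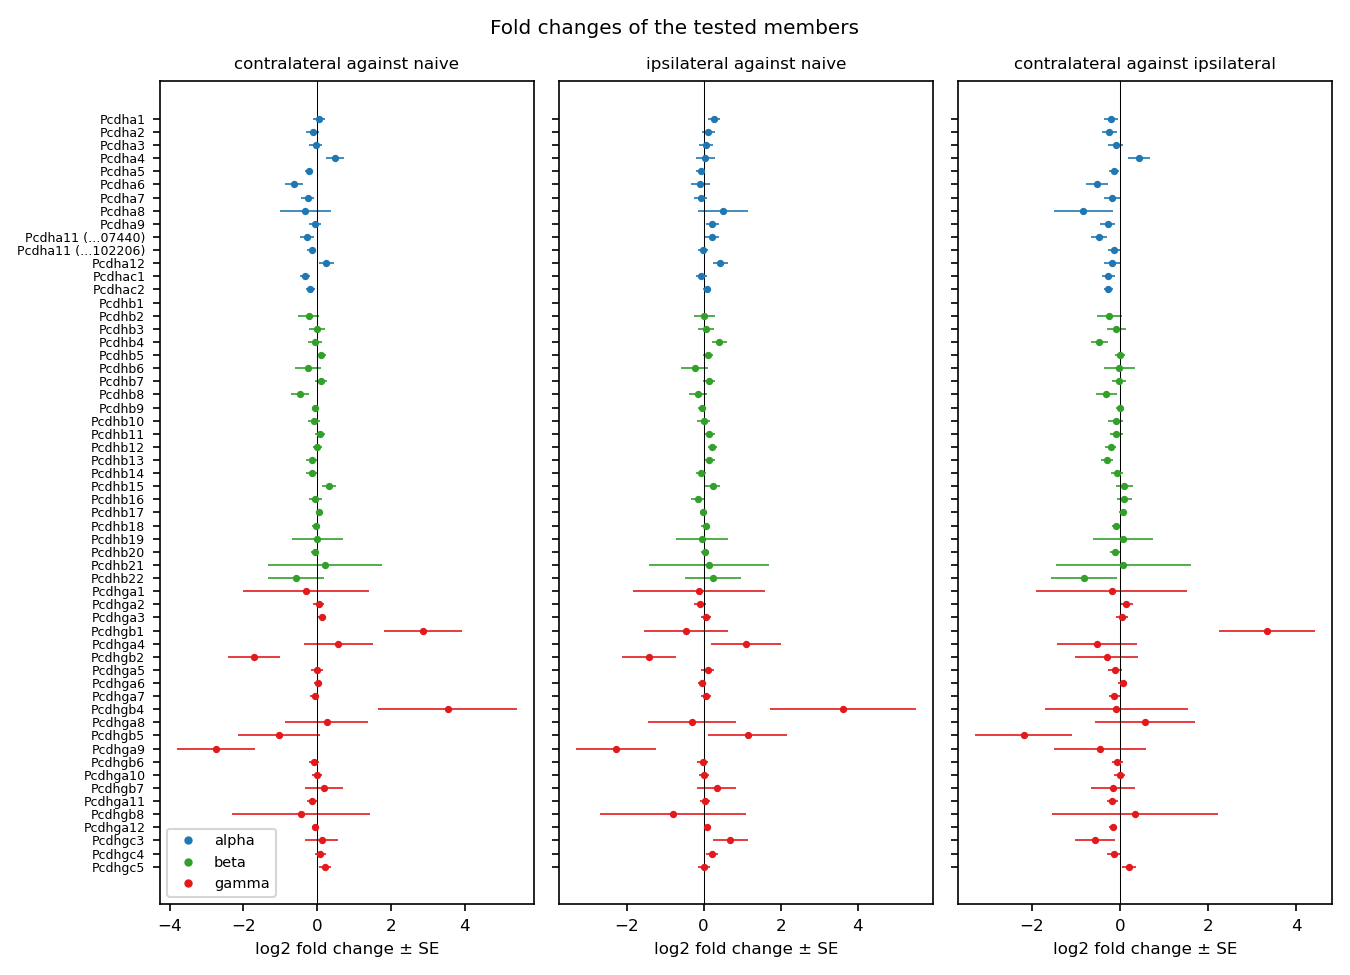
Log2 fold change ± SE (horizontal axes; edgeR) of the 57 tested members in the 3 comparisons, in genome order and coloured by cluster. No member passed at an adjusted p under 0.05, and the largest fold change in each panel belongs to a gamma member.

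With the 2 hemispheres of each CCI mouse summed, so that each of 8 mice counted once, no member and no gene passed (0 of 16179, 0%) in edgeR. DESeq2 passed 31 genes, none of them a member. At an unadjusted p under 0.05 there was 1 of 57 members, against 4.20% of all genes. That member was Pcdhgb4, with a log2 fold change of 3.59 (SE 1.37, adjusted p = 1 in edgeR) carried by ipsilateral 4 and contralateral 1. Next came Pcdha12 at 0.34 (SE 0.15), or 0.22 without naive 2, and Pcdha6 at -0.32 (SE 0.16), or -0.18 without CCI mouse 3. Fold changes were positive and negative in 7 and 7 alpha, 11 and 10 beta and 13 and 9 gamma members, with medians of 0.00, 0.01 and 0.02.

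Genes that act on the clusters or beside their proteins were read in the same fits. Of 22 genes of promoter choice and chromatin looping, such as the insulator protein gene Ctcf and the cohesin subunits, none passed at an adjusted p under 0.05 in edgeR, and 13 were positive and 9 negative in contralateral against naive, 16 and 6 in ipsilateral against naive and 13 and 9 between the hemispheres. Pds5a, a regulator of cohesin, stood at 41.2 to 45 CPM in 7 of the 8 CCI libraries, at 64.2 CPM in contralateral 4 and at 61.8 to 65.9 CPM in naive libraries. Its log2 fold change was -0.48 in CCI mice (SE 0.07, adjusted p = 0.0541 in edgeR). Ctcf lay between 61.7 and 71.6 CPM in all 12 libraries.

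None of the 15 other protocadherin and Celsr genes passed, with 12 positive and 3 negative, 9 and 6, and 6 and 9 in the same order of comparisons. Celsr1, a seven-pass cadherin of planar polarity, had the smallest p of that list, with log2 fold changes of 0.37 (SE 0.17) in contralateral against naive and 0.40 (SE 0.17) in contralateral against ipsilateral. The 18 genes of cytoplasmic and membrane partners, such as the kinase genes Ptk2 and Ptk2b and subunits of the WAVE actin-regulating complex, had none past the threshold and split 5 to 13, 7 to 11 and 8 to 10. Among them Nlgn2, the adhesion protein of inhibitory synapses, stood at 287, 285, 259 and 250 CPM in contralateral, 301, 292, 301 and 330 CPM in ipsilateral and 302, 309, 297 and 324 CPM in naive libraries. Every contralateral value was below every other one, with a log2 fold change of -0.19 against naive (SE 0.06, adjusted p = 1 in edgeR). Marcks, the next partner by p, went the other way between the hemispheres. Its log2 fold change was 0.20 (SE 0.08) in contralateral against ipsilateral and -0.19 (SE 0.08) in ipsilateral against naive.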

How the data were processed

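The authors deposited 1 table of raw read counts per gene for 12 libraries, with FPKM values that the authors computed beside them. Per the submitters' processing notes, HISAT2 2.0.4 and GRCm38/mm10 were used. No counting program or annotation release is given in the sources used here, and per the labels' protocols an mRNA kit was used. For the members, the length behind the deposited FPKM equalled the sum of distinct GENCODE M21 exon records in 57 of 58 (within 1 base). It was up to 2.6 times the exonic bases, so FPKM was not used and levels per kb are CPM over exonic bases. The exception was Pcdhgb8, with a length of 4615 bases against 7263 for the sum of its records.

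The test on these counts was edgeR 4.0.16 (R 4.3.3; TMM, filterByExpr by group, robust quasi-likelihood, two-sided). All 12 libraries in 3 groups gave 15808 tested genes, and a fit of 4 CCI mice with both hemispheres summed against 4 naive mice gave 16179. Adjustment was by Benjamini-Hochberg over all tested genes. SE is the absolute log2 fold change over the square root of F. limma 3.58.1 (voom), DESeq2 1.42.0, other filters and scalings, a replicate block, fits of only the groups compared and leaving out each library or mouse were alternatives. The test was run on simulated data first. Replicates differed beyond sampling noise in every group.

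The deviations of same-numbered left and right libraries from their group means were hardly correlated. Pearson's r across genes was 0.01, -0.14, 0.04 and 0.06 for numbers 1 to 4. Only ipsilateral 3 had its own number as the best match among the right libraries. Ipsilateral 4 and naive 4, which come from different mice, had an r of 0.10. The reading as 1 mouse comes only from the library codes, and the right over left ratios and the fit of summed hemispheres rest on it. Naive numbers pair with nothing.

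Named members were the C-type genes, the 2 highest and 2 lowest per length in each cluster, and per comparison those past the threshold or else the 3 of smallest p. From each other list the gene of smallest p was described, with Marcks as the next partner and Ctcf as an example. Other members were named after their values were seen. The members and lists were chosen with earlier results of these data known. No sequence is printed. A marker of the excitatory neuron list is not reported here and was left out of its sum.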

Additional observations from a re-analysis of the deposited data

Results flagged for a closer look

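Within groups of 4 libraries, a library was singled out where its gap to the nearest other one was a larger part of the group's range than Dixon's 95% critical value. Over 22 named members and the 3 cluster sums, 13 of 75 groups had such a library, 10 of them in the gamma cluster. Chance gives about 1 in 20 groups, but the named members were partly chosen by their values, so the count of such libraries is a description and was not compared with that rate. No cluster sum was among them.

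In the gamma cluster, Pcdhgb8 stood at 331 CPM in ipsilateral 2 (others 0.568 to 20.1), Pcdhgb4 at 337 CPM in ipsilateral 4 (3.6 to 5.75) and at 291 CPM in contralateral 1 (6.17 to 27.7), and Pcdhga1 at 295 CPM in contralateral 3 (6.09 to 7.29). Pcdhgb1 was at 338 CPM in contralateral 2 (8.55 to 49.1) and at 11.2 CPM in ipsilateral 4 (9.7 to 9.77), the latter a small difference between close values. Pcdhga9 reached 361 CPM in naive 4 (11.8 to 36.2), Pcdhgc3 248 CPM in ipsilateral 1 (57.1 to 65.9), and Pcdhgb5 71.2 CPM in ipsilateral 3 (3.88 to 5.04) and 24 CPM in naive 1 (3.89 to 5.59).

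In the alpha cluster, Pcdha12 was at 19 CPM in ipsilateral 1 (13.9 to 14.7). Pcdha8, the lowest alpha member, was at 3.26 CPM in the same library (0.518 to 0.966) and at 0.538 CPM in naive 3 (1.06 to 1.12).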

How the results depend on the processing

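No member passed at an adjusted p under 0.05 in any of the 71 pairs of a comparison and a setting, the 4 reported ones and 67 alternatives. Several of these pairs share 1 model fit, which gave up to 3 comparisons. The number of genes passing over the whole table, 0 in each reported fit, was 3 by DESeq2, 1 with only the 2 groups compared and 1 with a replicate block in contralateral against naive. It was 9, 7 and 1 under the same settings in ipsilateral against naive. For CCI mice it was 31 by DESeq2, 5 with no filter and 1 with a replicate block. Between the hemispheres the replicate block and DESeq2 gave 0. DESeq2 gave no adjusted p for 3, 4, 3 and 3 of the 57 members in the comparisons in the order of the report, among them Pcdhgb2 and Pcdhgb5 in each. Leaving out each library gave 0 to 2, 0 to 2 and 0 to 159 genes in the 3 comparisons, with 159 without contralateral 2, and leaving out each mouse gave 0 to 6. Fold changes of the 3 members of smallest p in each comparison kept their sign in the alternatives computed. Those of the other named members were not followed. Among the cluster sums, which were not tested, the log2 ratio of gamma for contralateral to naive (0.02) was -0.01 without contralateral 4. For CCI mice the alpha ratio (-0.02) was 0.01 without CCI mouse 3 and without naive 3, and the gamma ratio (-0.02) was 0.01 without CCI mouse 1. Same-numbered left and right libraries did not deviate together (r of -0.14 to 0.06), so the block was kept as an alternative. In comparisons with naive libraries the block joins naive and CCI numbers arbitrarily.

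The log2 ratio of the alpha sum, contralateral to ipsilateral, lay between -0.31 and -0.18 with each library left out. Pcdhga9 in contralateral against naive lay between -3.24 and -0.64, and Pcdhgb1 between 0.74 and 3.26. With the count tables alone, reads of the shared alpha and gamma exons cannot be divided anew, so no alternative for their assignment was run. With means of 1 to 5 CPM, members such as Pcdhb4 rest on few reads per library.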
